A study of Homo sapiens with 2 samples.

Results

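The hedgehog pathway and the zinc finger factors related to its effectors were followed in A2780, an established human ovarian cancer cell line, by poly(A)-selected RNA sequencing. The set held 9 genes, chosen by symbol from a table of 58735: the receptor PTCH1, the transducer SMO, the inhibitor SUFU, the factors GLI1, GLI2 and GLI3, and the zinc finger genes GLI4, GLIS2 and GLIS3. They were put together with earlier results of these libraries known, the low value of GLIS2 among them, so their values are a description and carry no test. There were 2 libraries, 1 in each group. One is labelled shControl, with a wild-type genotype in the labels and an empty vector in the design text. The other is labelled shJAM3 and described as a stable knockdown of JAM3, a gene for a junctional adhesion molecule. The stated knockdown was not seen in the few JAM3 fragments of these libraries, and shJAM3 here names the library by its label. The titles carry the prefix sh while the design text speaks of siRNA, and the sources used here do not give the construct. Below, shControl and shJAM3 are the labels of the libraries.

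Hedgehog ligands bind the receptor Patched (PTCH1), which otherwise holds the membrane protein Smoothened (SMO) inactive. Active SMO, acting in the primary cilium, releases the GLI proteins from their inhibitor SUFU. GLI1 and GLI2 act mainly as activators and GLI3 mainly as a repressor of target genes, which include PTCH1 and GLI1 themselves, so that the transcripts of these genes are used as readouts of the pathway. The GLIS proteins share a zinc finger region with the GLI proteins but are not part of the core pathway. GLIS2 is mutated in a form of nephronophthisis, a kidney disease of the cilium, and GLIS3 acts in pancreatic beta cells. GLI4 carries zinc fingers of the same class and a less well described role.

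Upstream sequence of the members was taken from RefSeq (GRCh38.p14), which held 11 start sites for 5 members, GLI2, SMO, GLIS3, PTCH1 and SUFU. In the 250 bases before each start site, the GLI binding sequence TGGGTGGTC was searched on both strands, as was TGGGGGGTC, a run bound by GLIS proteins that differs from it in 1 base. The first was found before 1 of the 5 PTCH1 start sites and before no other of the 11. It lies on the gene's own strand at chr9:95509430-95509438, and its first base is 172 bases upstream of the start site. No annotated PTCH1 exon reaches into this window. Of all 35116 windows of this length, 0.199% held the GLI sequence and 0.214% the GLIS sequence, which none of the 11 held. GLI1, the other member read as a target of GLI proteins, had no window here. The stretch around the match before PTCH1 is shown because it holds the only match. It runs 5′ to 3′ along the minus strand from chr9:95509390-95509478, with the match in capitals.
PTCH1: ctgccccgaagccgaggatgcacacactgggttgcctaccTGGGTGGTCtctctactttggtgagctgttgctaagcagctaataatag

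The window before SMO is shown because SMO had no fragment in either library. It covers chr7:129188383-129188632 on the plus strand, with each CpG dinucleotide in capitals. It holds 25 CpG, more than 78.4% of all windows, against a median of 11, and no exon of SMO. DNA methylation was not measured here.
SMO: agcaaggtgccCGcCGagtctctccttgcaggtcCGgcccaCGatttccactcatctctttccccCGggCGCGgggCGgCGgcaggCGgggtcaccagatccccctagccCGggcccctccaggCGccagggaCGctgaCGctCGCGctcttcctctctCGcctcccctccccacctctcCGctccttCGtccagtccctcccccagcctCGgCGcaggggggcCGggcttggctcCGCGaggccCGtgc

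Levels are given as FPKM (fragments divided by gene length in kilobases and by library size) beside the fragments themselves, which were recovered from the deposited values. The libraries held 15570262 fragments (shControl) and 16455079 (shJAM3). JAM3, the targeted gene, had 18 and 14 fragments, a ratio of shJAM3 to shControl of 0.716 (0.330 to 1.52). That interval, like every bracketed one below, is a 95% interval for counting error only. The design text states a reduction of JAM3 by over 70%, a ratio under 0.3. The interval holds 1, and its lower bound of 0.330 lies just above 0.3. PCR copies make such intervals too narrow, so at this depth the stated reduction is neither seen nor excluded. With 1 library a group there was no replicate check, so each comparison below is of these libraries, not of conditions. Of 8 epithelial and ovarian carcinoma markers, MSLN, KRT7, KRT8 and KRT18 lay between 93.4 and 198 FPKM, PAX8 was at 1.12 and 0.527 FPKM, EPCAM was under 1 FPKM in both libraries, and WT1 had 1 fragment in shControl and none in shJAM3. MUC16 was at 0.475 FPKM in shControl and 1.07 FPKM in shJAM3, a ratio of 2.25 (1.98 to 2.57), against ratios of 0.471 (0.344 to 0.641) for PAX8 and 0.641 (0.619 to 0.664) for MSLN. The summed level of 5 leukocyte markers was 2.78 FPKM in shControl and 1.36 in shJAM3, that of 4 endothelial markers 0.482 and 0.405, and that of 6 fibroblast markers 17.3 and 14.3. PTPRC, KDR, COL1A2 and PDGFRA had no fragment. COL1A1 and PDGFRB made up most of the fibroblast sum. The part of other cell types in the results was not tested.

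GLIS2 had the widest gap between the libraries of all members, at 27.1 FPKM in shControl against 5.94 in shJAM3. In bulk RNA, fewer cells with a transcript and less of it in each cell cannot be told apart. GLI2, GLI3, GLI4 and SUFU were lower in shJAM3 by 26.4% to 35.8%, while GLIS3 and PTCH1 had intervals that held a ratio of 1. GLI1 was barely present, and SMO was listed at 0.

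**Figure D1:**
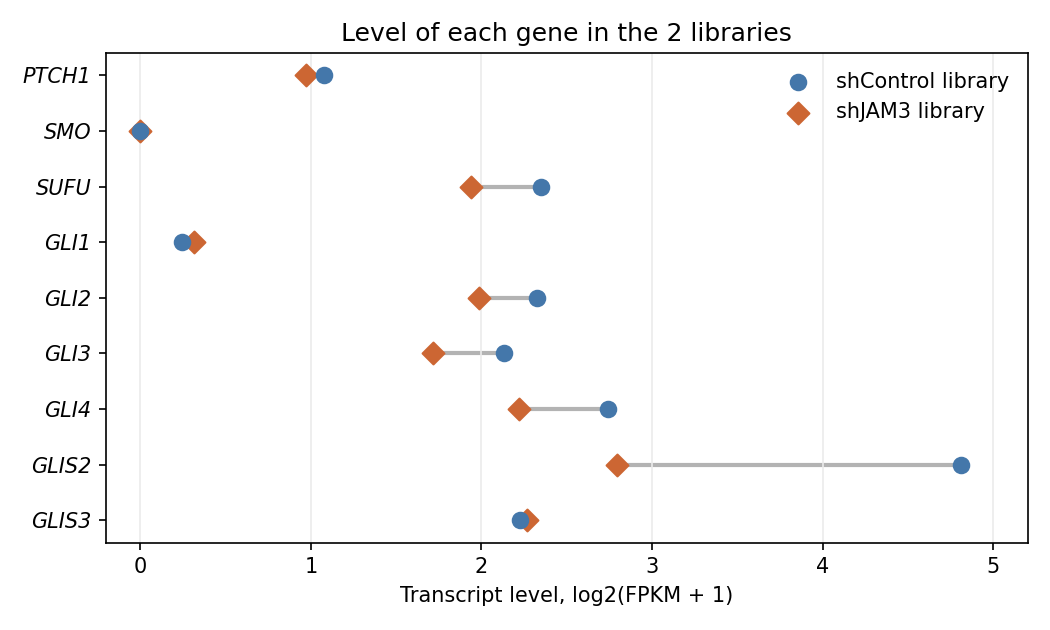
Transcript level of the 9 genes in the shControl library (circles) and the shJAM3 library (diamonds), on the scale log2(FPKM + 1), with a grey line joining the 2 values of a gene. GLIS2 spans 27.1 to 5.94 FPKM, while SMO sits at 0 in both libraries and GLI1 below 0.25 FPKM.

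PTCH1 (ENSG00000185920, chromosome 9, 95442980 to 95517057, minus strand, GRCh38) encodes the receptor. Its level was 1.11 FPKM in shControl, from 283 fragments, and 0.961 FPKM in shJAM3, from 266 fragments. The ratio was 0.866 (0.730 to 1.03), so a difference was not detectable at this depth. At a mean of 1.04 FPKM it stood just above the minimum of 1 FPKM, averaged over both libraries, that was required to call a gene measured. Antisense gene AL161729.1, with 5 and 11 fragments, covers 4.29% of the PTCH1 exon bases. The library protocol describes no step that marks strand, so fragments from that stretch cannot be told apart.

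SMO (ENSG00000128602, chromosome 7, 129188872 to 129213545, plus strand) encodes the transducer that every canonical hedgehog signal passes through. It had 0 fragments in shControl and 0 in shJAM3. Taking 3 fragments as the limit that a count of 0 allows, its level was at most 0.0453 FPKM in shControl and 0.0417 in shJAM3, for counting error only. This was common among genes in general, since 4630 of 19932 protein-coding genes (23.2%) had no fragment in either library. None of 12 ubiquitously expressed genes was at 0, and the lowest of them, TBP, had at least 241 fragments. An antisense gene, AC011005.4, shares 2.99% of the SMO exon bases and also had no fragment. The 5 measured protein-coding genes within 250 kb of SMO, a distance chosen after the values were seen, had mean levels of 1.13 to 39.0 FPKM. Among them AHCYL2, which lies downstream of SMO, was at 6.20 and 4.85 FPKM.

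SUFU (ENSG00000107882, chromosome 10, 102503987 to 102633535, plus strand) encodes the protein that holds GLI factors in the cytoplasm. Its 431 fragments in shControl gave 4.09 FPKM, and its 325 in shJAM3 gave 2.84 FPKM. The ratio of 0.695 (0.600 to 0.804) lay below 1 by more than counting error. No annotated exon of another gene overlaps it.

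The GLI factors of the pathway were present as GLI2 and GLI3, with very little GLI1. GLI1 (ENSG00000111087, chromosome 12, 57460135 to 57472262, plus strand) had 12 fragments, 0.186 FPKM, in shControl and 17, 0.242 FPKM, in shJAM3. Its ratio of 1.30 (0.587 to 2.99) left a difference not detectable at this depth, and 12308 of 19932 protein-coding genes were above it in mean level.

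GLI2 (ENSG00000074047, chromosome 2, 120735623 to 120992653, plus strand) had 453 fragments in shControl, at 4.02 FPKM, and 362 in shJAM3, at 2.96 FPKM, a ratio of 0.736 (0.639 to 0.847). GLI3 (ENSG00000106571, chromosome 7, 41960950 to 42237870, minus strand) had 569 fragments at 3.38 FPKM and 417 at 2.28 FPKM, a ratio of 0.675 (0.593 to 0.767). Both were lower in shJAM3 beyond counting error. Within each library the level of GLI2 exceeded that of GLI3, by 1.19 times (1.05 to 1.35) in shControl and 1.29 times (1.12 to 1.49) in shJAM3. The order of the 2 FPKM values was thus the same in both libraries. These intervals leave out errors from exon length (7341 bases for GLI2, 10950 for GLI3) and GC content (60.8% and 50.7%). Whether GLI2 transcripts outnumber those of GLI3 was therefore not settled. Protein forms, which set whether GLI3 represses, are not measured by RNA levels.

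GLI4 (ENSG00000250571, chromosome 8, 143267433 to 143276931, plus strand) had 267 fragments in shControl, at 5.69 FPKM, and 186 in shJAM3, at 3.65 FPKM. Its ratio was 0.642 (0.529 to 0.777). A protein-coding gene on the same strand, AC138696.1, covers 19.8% of the GLI4 exon bases, and had 0 and 2 fragments of its own. How fragments from the shared stretch were counted is not stated in the labels.

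GLIS2 (ENSG00000126603, chromosome 16, 4314761 to 4339597, plus strand) encodes a Kruppel-like zinc finger factor known mostly from the kidney. Its 1861 fragments in shControl gave 27.1 FPKM, and its 443 in shJAM3 gave 5.94 FPKM. The ratio was 0.219 (0.197 to 0.243), or 4.56-fold lower, and its interval lay below that of each other member with fragments. On the scale log2(FPKM + 1), used below for all genes together because it steadies low values, the difference was -2.02 (-2.15 to -1.88). That was the fourth lowest value of 10499 measured protein-coding genes. Among the 310 measured genes that the deposited table places in the zf-C2H2 family it was the lowest, followed by genes at -1.75 and -1.36. Of those 310 genes 7 were at least 2-fold lower (2.26%) and 1 at least 2-fold higher (0.323%), with a median of -0.01.

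No measured protein-coding gene within 250 kb of GLIS2 was past 2-fold. Of all measured genes 2.10% were at least 2-fold lower and 1.30% at least 2-fold higher, so nothing is read from this. AC012676.1, annotated on the opposite strand inside GLIS2, overlaps 24.5% of the GLIS2 exon bases, where fragments of the pair cannot be told apart, and had 12 fragments in each library. PAM16, on the opposite strand with no shared exon base, had 1.72 FPKM in shControl against 2.09 in shJAM3. GLIS2-AS1 also shares no exon base and had 8 and 3 fragments. Of the 8 measured protein-coding genes within 250 kb, 4 were lower, beside 49.5% of measured genes, and 4 higher, beside 50.5%. They lay between -0.84 for the adenylyl cyclase gene ADCY9 and 0.33 for the transcription factor gene TFAP4. This distance too was chosen after the values were seen. Of protein-coding genes averaging 5 FPKM or more, those whose difference lay closest to that of GLIS2 were C11orf86 (-2.08), CLIP2 (-1.95), which encodes a microtubule-binding protein, and HIST1H3B (-1.87), a histone H3 gene with near-identical copies. This likeness rests on 2 libraries, which is 1 difference for each gene.

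GLIS3 (ENSG00000107249, chromosome 9, 3824127 to 4348392, minus strand), the other GLIS member of the set, had 666 fragments at 3.67 FPKM in shControl and 751 at 3.81 FPKM in shJAM3. The ratio of 1.04 (0.934 to 1.15) held 1 within its interval. Its antisense gene GLIS3-AS1 shares 1.64% of its exon bases and had no fragment. The level of GLIS2 was 7.39 times (6.76 to 8.09) that of GLIS3 in shControl and 1.56 times (1.38 to 1.76) in shJAM3.

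GLIS2 had the highest FPKM of the 9 genes in both libraries. Intervals between genes leave out errors from exon length and GC content, so the order given here is one of FPKM values. In shControl it was followed by GLI4, whose level exceeded that of SUFU by 1.39 times (1.19 to 1.62). SUFU, GLI2, GLIS3 and GLI3 came next in that order, and no neighbouring pair of these 4 differed beyond counting error. PTCH1 was 3.05 times below GLI3 (2.64 to 3.53), and GLI1 below PTCH1. In shJAM3 GLIS3 moved up to the second place, with a level not distinguishable from that of GLI4 (1.04 times, 0.888 to 1.23). GLI4 exceeded GLI2 by 1.23 times (1.03 to 1.48), GLI2 and SUFU did not differ beyond counting error, and GLI3, PTCH1 and GLI1 followed.

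Of the 9 members, 7 passed the minimum mean of 1 FPKM, and GLI1 and SMO did not. By the rule of size, a difference of at least 1 on the log2(FPKM + 1) scale, 1 of the 7 was at least 2-fold lower, GLIS2, beside 2.10% of all 12214 measured genes, and 0 were at least 2-fold higher, beside 1.30%. Since GLIS2 was known to be low when the set was drawn up, nothing is read from this. A ratio below 1 was found for 6 of the 7, beside 49.5% of measured genes, and above 1 for 1, GLIS3, beside 50.5%. The counting interval lay below 1 for 5 of the 7, beside 33.6%. It lay above 1 for 0 of the 7, beside 33.0%, and held 1 for 2. The median difference of the 7 was -0.41, against 0.005 over all measured genes.

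**Figure D2:**
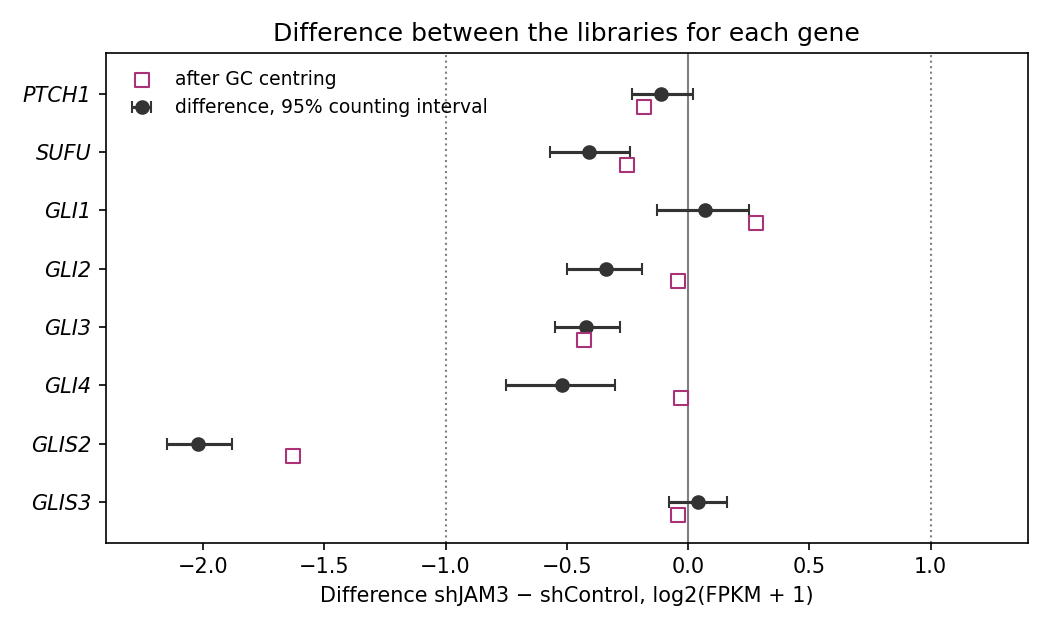
Difference between the libraries (shJAM3 minus shControl) on the scale log2(FPKM + 1) for the 8 members with fragments, with 95% counting intervals (bars) and the value after centring on genes of like GC content (open squares). Dotted lines mark 2-fold; GLIS2 at -2.02 is past it, and GLI2 and GLI4 move to -0.04 and -0.03 after centring.

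The difference between the libraries followed the GC content of transcripts over the whole table, and several members are rich in GC. The median difference was 0.23 in the tenth of measured protein-coding genes with the lowest GC and -0.44 in the tenth with the highest. GC content of the longest transcript was 67.6% for GLI4, 64.3% for GLIS2, 60.8% for GLI2 and 56.6% for SUFU, against a median of 49.1% over measured protein-coding genes. It was 50.7% for GLI3, 48.7% for PTCH1 and 47.0% for GLIS3.

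Each gene was therefore also centred on the median of its GC bin. GLIS2 was then at -1.63, still past 2-fold, where 1.45% of measured genes were at least 2-fold lower and 1.33% higher. Its rank from the lowest among measured protein-coding genes went from 4 to 8. GLI3 moved only from -0.42 to -0.43, and SUFU from -0.41 to -0.25. GLI2 moved from -0.34 to -0.04 and GLI4 from -0.52 to -0.03, so for these genes the difference was close to that of other genes of like GC content. GLIS3 turned from 0.04 to -0.04 and PTCH1 went from -0.11 to -0.18. After centring 7 of the 7 were below 0, beside 48.8% of measured genes, and 0 above it, beside 51.0%, with a median of -0.18. Of the 406 measured protein-coding genes within 1 percentage point of the GC content of GLIS2, GLIS2 included, the median was -0.38, and the lowest apart from GLIS2 was -1.95.

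**Figure D3:**
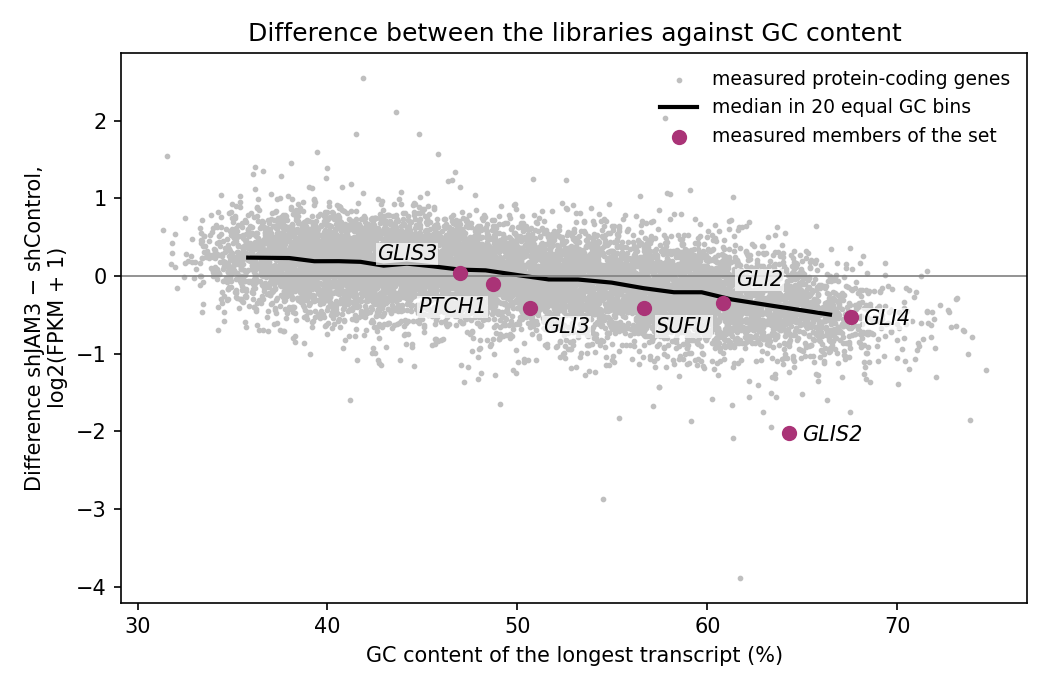
Difference between the libraries (shJAM3 minus shControl, log2(FPKM + 1)) against the GC content of the longest transcript, for measured protein-coding genes (grey), their median in 20 equal GC bins (line) and the 7 measured members (labelled). GLI2 and GLI4 lie close to the line, GLI3 and SUFU below it, and GLIS2 at -2.02 is far below it at 64.3% GC.

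Upstream of PTCH1, the hedgehog ligands were almost absent. SHH had 5 fragments in shControl and 1 in shJAM3, IHH 4 and 1, and DHH 7 and 2. HHAT, which attaches palmitate to the ligands, had 5 and 9. DISP1, which releases the ligands from the cell that makes them, was the measured gene of this list of 6, at 4.22 and 2.86 FPKM, a ratio of 0.678 (0.575 to 0.799).

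Of 7 other receptors and coreceptors 2 were measured, both lower in shJAM3, beside 49.5% of all measured genes. GAS1, a membrane-anchored coreceptor that helps ligand bind PTCH1, went from 13.4 FPKM in shControl to 6.55 in shJAM3, a ratio of 0.488 (0.424 to 0.561). CDON, a coreceptor of the same step, had a ratio of 0.728 (0.609 to 0.870), and 26.7% of its exon bases are shared with another gene. On the log2(FPKM + 1) scale GAS1 was at -0.93, just inside the 2-fold rule, and at -0.72 after GC centring. BOC had 6 and 3 fragments, and HHIP, a decoy receptor and target gene, had none.

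Genes that regulate or relay SMO were on the lower side before centring on GC. Of 13, 11 were measured, of which 10 were lower, beside 49.5% of all measured genes, and 1 higher. None was past 2-fold, a size reached on the lower side by 2.10% of all measured genes and on the higher side by 1.30%. These shares stand beside each list below too. The counting interval lay below 1 for 7 of the 11, beside 33.6%. The list is rich in GC, with a median of 58.5%. With GC centring 8 were lower, beside 48.8% of measured genes, and 3 higher, beside 51.0%, while the median moved from -0.34 to -0.10. GPR161, a ciliary receptor that keeps the pathway off, went from 4.84 FPKM in shControl to 2.76, a ratio of 0.571 (0.511 to 0.638). ARRB1, a beta-arrestin, had a ratio of 0.625, and INPP5E, a ciliary phosphoinositide phosphatase, of 0.642. After GC centring GPR161 was at -0.64 and ARRB1 at -0.47, while INPP5E was at -0.26. ARRB2 was the measured gene on the higher side, with a ratio of 1.31 (1.15 to 1.5).

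The kinases, scaffolds and ubiquitin ligases that act on GLI proteins went both ways. All 15 were measured, 5 higher, beside 50.5% of measured genes, and 10 lower, beside 49.5%, none past 2-fold, with a median of -0.10. With GC centring 6 were higher, beside 51.0% of measured genes, and 9 lower, beside 48.8%, at a median of -0.07. BTRC, the F-box protein that targets phosphorylated GLI3 for processing, went from 5.25 to 9.85 FPKM, a ratio of 1.88 (1.69 to 2.09). GSK3B, one of the kinases that act in this step, had a ratio of 0.705 (0.670 to 0.742) and CSNK1D, a casein kinase, of 0.699. KIF7, a ciliary kinesin that organises GLI and SUFU, had 100 and 66 fragments, a ratio of 0.608 (0.439 to 0.838). On the log2(FPKM + 1) scale, GC centring took BTRC from 0.80 to 0.67, GSK3B from -0.48 to -0.66 and KIF7 from -0.36 to 0.02. Another annotated gene covers 16.8% of the CSNK1D and 11.8% of the KIF7 exon bases.

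Genes of the primary cilium, the organelle in which SMO and the GLI proteins meet, were mostly higher in shJAM3. Of 25, 19 were measured, with 15 higher, beside 50.5% of measured genes, and 4 lower, 0 past 2-fold, and the same numbers after GC centring. The counting interval lay above 1 for 12 of the 19, beside 33.0% of measured genes, and below 1 for 3, with a median difference of 0.20, or 0.15 after GC centring. WDR35, a subunit of the retrograde intraflagellar transport complex, went from 1.24 FPKM in shControl to 3.20, a ratio of 2.58 (2.14 to 3.14). Its difference of 0.91 on the log2(FPKM + 1) scale is understated by the added 1, as for other low genes. WDR19 and IFT122, of the same complex, had ratios of 1.85 (1.52 to 2.27) and 1.61 (1.43 to 1.82), and IFT57, of the anterograde complex, 1.67 (1.34 to 2.09). IFT140, also of the retrograde complex, was on the lower side, with a ratio of 0.880 (0.813 to 0.953). The anterograde complex gene IFT74 had 2 and 1 fragments.

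Of 7 nephronophthisis genes other than GLIS2, 5 were measured, with a median of 0.15. Of these, 4 were higher, beside 50.5% of measured genes, and 1 lower, beside 49.5%. The lower one, NPHP4 at -0.02, was on the higher side when fragments were scaled to library totals or centred on GC. CEP290, a protein of the ciliary transition zone, had a ratio of 1.69 (1.38 to 2.07) and IQCB1 of 1.21 (1.04 to 1.42), while the intervals of INVS and NEK8 held 1. On the log2(FPKM + 1) scale, GC centring took CEP290 from 0.42 to 0.19 and IQCB1 from 0.24 to 0.06. It took NEK8 from 0.15 to 0.36 and left INVS at 0.09, with the median at 0.19. None of these 5 was at least 2-fold lower, beside 2.10% of measured genes, so nothing is read from this.

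Genes described as targets of GLI proteins in other tissues were more often lower than higher. Of 18, 10 were measured, 7 lower, beside 49.5% of measured genes, and 3 higher, 0 past 2-fold, with a median of -0.11. The counting interval lay below 1 for 6, beside 33.6%, and above 1 for 2, beside 33.0%. After GC centring 8 were lower and 2 higher, beside 48.8% and 51.0%, with a median of -0.18. CCND1, which encodes cyclin D1, went from 21.2 to 34.5 FPKM, a ratio of 1.63 (1.53 to 1.73). JAG2, a NOTCH ligand, had a ratio of 0.636 (0.601 to 0.673), IGFBP6, which binds insulin-like growth factors, of 0.646 and SNAI1, a repressor of epithelial genes, of 0.653. GC centring took CCND1 from 0.68 to 0.67 and JAG2 from -0.63 to -0.24. HHIP, CCND2, MYCN, SFRP1 and NKX2-2 had no fragment in either library, and BMP4 had 2 and 4.

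The remaining relatives of the GLI zinc finger included GLIS1 and ZIC genes. GLIS1 was at 2.20 and 1.37 FPKM, from 105 and 71 fragments, a ratio of 0.623 (0.454 to 0.850). ZIC2 and ZIC5 had ratios of 0.761 (0.635 to 0.912) and 0.800 (0.675 to 0.949). After GC centring GLIS1 was at -0.05, ZIC2 at -0.11 and ZIC5 at -0.26. ZIC1 had 3 and 0 fragments, and ZIC4 had none.

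**Figure D4:**
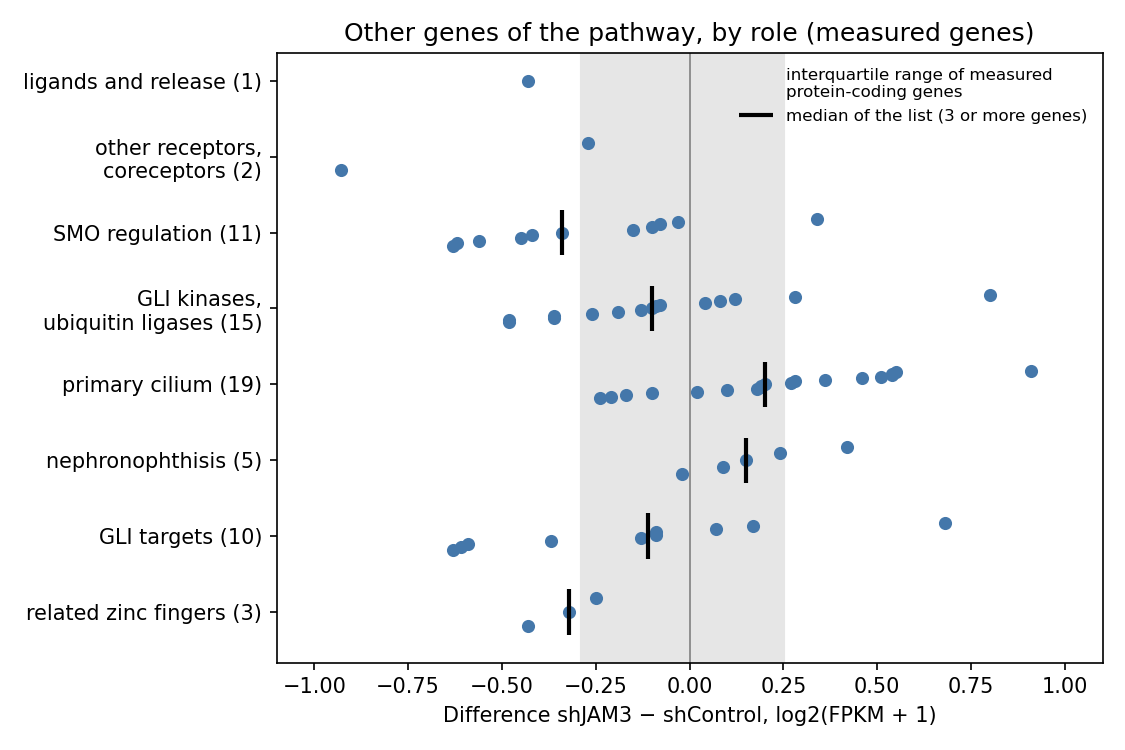
Difference between the libraries (shJAM3 minus shControl, log2(FPKM + 1)) for the measured genes of 8 lists around the set, 1 point for each gene, with the number of measured genes in brackets, the median of lists with at least 3 genes (black line) and the interquartile range of measured protein-coding genes (grey band). The median of the cilium list is 0.20 and that of the SMO list -0.34, and no gene reaches 1 or -1.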

How the data were processed

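The authors deposited 1 table of FPKM values for both libraries. Per the submitters' processing notes, HISAT2 2.0.5 and featureCounts 1.5.0-p3 were among the tools, whose roles are not stated, and the sources used here do not give the genome build. All 58735 gene identifiers, positions and exon lengths equalled those of GENCODE 29 (GRCh38). In each library FPKM times gene length came in whole steps of 1 size for 100% of values above 0 (tolerance 0.001 fragments), which gave the fragments.

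Of rows sharing a symbol, the one with the highest mean was kept, leaving 57169. Differences are log2(FPKM + 1), a scale that understates low genes. Intervals are exact conditional binomial ones, for counting error only, and PCR copies make them too narrow. GC content came from the longest GENCODE 29 transcript, in 20 bins, for 10496 of 10499 measured protein-coding genes. With 1 library a group no test was made. The scripts (Python 3.11.15, SciPy 1.17.1) were tested on simulated data.

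The members and lists were chosen with earlier results of these data known, and the lists were drawn from general knowledge of the pathway, not from how genes moved. Named genes were all members, overlapping genes, the genes nearest to GLIS2, and up to 4 measured genes of each list with the largest absolute difference. Other genes were named after their values were seen: ligands, genes with no or few fragments, markers, ARRB2, IFT140 and the neighbours of GLIS2 and SMO. A few genes of these lists are counted but not reported by name.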

Additional observations from a re-analysis of the deposited data

How the results depend on the processing

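No paired analysis was possible because each group had 1 library. Of 97 values recomputed under other settings 81 stayed within counting error (members, lists) or 1.5 times (counts), and 16 did not. With a pseudocount of 0.1 FPKM, GLIS2 was at -2.17 and GLI1 at 0.26. With GC centring, GLIS2 was at -1.63, GLI1 at 0.28, GLI2 at -0.04, GLI4 at -0.03 and the SMO regulation list at a median of -0.10. That list was at -0.24 when any gene with a fragment was kept. A stricter minimum mean of 5 FPKM left 1 member, GLIS2. The number of measured genes at least 2-fold lower went from 257 to 477 with a pseudocount of 0.1, 141 at a mean of at least 5 FPKM and 148 among protein-coding genes. The number at least 2-fold higher went from 159 to 361, 52 and 41, and to 254 with no minimum. GLIS2 was the member at least 2-fold lower under each setting run. At this depth a difference in GLI1, with 12 and 17 fragments, was not detectable. For JAM3, with 18 and 14 fragments, the interval of 0.330 to 1.52 holds 1 and leaves out the stated ratio under 0.3. The stated reduction was thus not seen. An interval for counting error only, from so few fragments, cannot exclude it.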
